A study of Mus musculus with 9 samples.

Results

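The 10 genes described here are the antioxidant transcription factor *Nfe2l2* (Nrf2), its repressor *Keap1*, and 8 genes known as Nrf2 targets, namely *Nqo1*, *Hmox1*, *Gclc*, *Gclm*, *Txnrd1*, *Srxn1*, *Gsr* and *Prdx1*. They were chosen by symbol, and all 10 were found among the 53077 genes listed for each sample. RNA came from 5TGM1-Cas9 cells, which derive from a mouse multiple myeloma and express Cas9 in all 3 populations. Control cells had received a Rosa26 gRNA, another population an *Slc2a1* gRNA, and the last 5 gRNAs together, directed at *Slc2a1*, *Slc2a3*, *Slc2a5*, *Slc2a6* and *Slc2a8* (*Slc2a1/3/5/6/8* gRNA), with 3 replicates in each population. *Slc2a1* encodes the glucose transporter GLUT1, and the study used these cells to ask which transporters take up a fluorescent glucose analog. Per the study's results, the cells with all 5 gRNAs came from a line that was sorted and expanded before *Slc2a1* was targeted. In cultures with an *Slc2a1* gRNA, staining showed fewer GLUT1-positive cells than in control, though some remained, and uptake of radioactive glucose fell. Only part of the target sequences in the cultures with 5 gRNAs held frameshifts. Each library is thus an average over a mixed culture, in which fewer cells with a transcript and less transcript per cell cannot be told apart.

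Nrf2 is held in the cytosol by Keap1, an adaptor of a ubiquitin ligase that marks it for degradation. Oxidants and electrophiles modify cysteines of Keap1, and Nrf2 then accumulates, pairs with a small Maf protein and binds antioxidant response elements (AREs) of its target genes. The targets make glutathione, reduce oxidised glutathione and thioredoxin, and detoxify quinones and heme, and the reducing power they use comes from NADPH, much of it made from glucose by the pentose phosphate pathway. Because Nrf2 is controlled mainly through its stability, its transcript level is not a measure of its activity. Plasma cells and myeloma cells secrete disulfide-bonded protein and carry a steady oxidative load.

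The deposited estimated counts summed to between 21838805 and 30537105 per library. Of 7 plasma cell markers, 6 were at 1 TPM (a level corrected for transcript length and library total) or more in all 9 libraries, *Tnfrsf17* being the exception, and the summed level of the list was between 627 and 956 TPM. All 4 mature B cell markers and all 4 myeloid markers stayed under 1 TPM in every library. The T cell markers had a summed level of at most 1.76 TPM and the fibroblast markers of at most 1.45 TPM, mainly from *Cd4* and *Col1a1*. Among the targeted genes, *Slc2a1* lay between 26.9 and 59.5 TPM in control, 28.4 and 37.1 TPM in *Slc2a1* gRNA-transduced and 19.1 and 31.5 TPM in *Slc2a1/3/5/6/8* gRNA-transduced cells, so that the *Slc2a1* transcript did not separate the first 2 groups. With the 5 gRNAs *Slc2a8* (3.05 to 4.13 against 7.44 to 9.77 TPM in control) and *Slc2a6* (1.67 to 1.87 against 2.92 to 3.78 TPM) were lower than control in all libraries, *Slc2a5* was higher (0.508 to 1.42 against 0.104 to 0.396 TPM), and *Slc2a3* overlapped. The *Slc2a1* gRNA targets neither *Slc2a8* nor *Slc2a6*. With it, *Slc2a8* (6.47 to 7.04) and *Slc2a6* (2.12 to 2.91) were also lower than control in all libraries in TPM. In counts scaled to library size (CPM), *Slc2a8* stayed apart, at 14.8 to 15.7 against 16.2 to 18.5 in control. *Slc2a6* overlapped there, at 4.67 to 7.07 against 5.69 to 7.40 CPM in control. Scaled counts of 26.2% of all genes did not overlap in this comparison. A frameshift need not lower the transcript. Mitochondrial transcripts took between 4.84% and 11.1% of the counts, with the highest share in *Slc2a1/3/5/6/8* gRNA replicate 1.

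RefSeq windows of 300 bases on GRCm38.p6, from 250 bases before a transcription start to 50 bases after it, were at hand for 7 of the 10 genes (9 windows, 3 of them for *Txnrd1*) and were searched for the core of the ARE. The core was spelled TGACNNNGC and sought on both strands. It was found in 5 of the 9 windows, in *Nfe2l2*, *Srxn1*, *Gclm*, *Prdx1* and the second start of *Txnrd1*, against 12.4% of the 32851 windows of the whole table. The windows of *Keap1*, *Nqo1* and the other starts of *Txnrd1* did not hold these letters. Sequence outside the windows was not searched, so this does not show that these genes lack an ARE. Positions are counted from the first transcribed base as 1, with no position 0. The 4 upstream matches are shown with 10 flanking bases on each side, on the sense strand of the gene, with the core in capitals (in *Gclm*, *Prdx1* and *Txnrd1* the match is on the opposite strand, so the core reads in reverse complement).
Nfe2l2: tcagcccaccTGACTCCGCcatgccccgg
Gclm: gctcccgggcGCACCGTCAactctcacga
Prdx1: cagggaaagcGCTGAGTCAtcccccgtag
Txnrd1: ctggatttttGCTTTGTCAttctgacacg
The *Nfe2l2* stretch lies at chr2:75704885-75704913 on the minus strand, with the core at -240 to -232. That of *Gclm* lies at chr3:122245413-122245441 on the plus strand, with the core at -134 to -126. That of *Prdx1* is at chr4:116685456-116685484 on the plus strand, with the core at -133 to -125, and that of *Txnrd1* at chr10:82859104-82859132 on the plus strand, with the core at -92 to -84. In *Prdx1* the core overlaps a match to the AP-1 motif TGANTCA, which 7.81% of all windows hold. In *Srxn1* the core match lay after the start, at 29 to 37, and 2 matches to TGANTCA lay before it. These are shown because *Srxn1* was at 0 counts in every library, with the AP-1 motif in capitals.
Srxn1, distal match: ctcggagggccTGAGTCAccacgctgtgc
Srxn1, proximal match: caaattcacccTGAGTCAgcggccgggcg
The distal stretch is chr2:152105411-152105439 and the proximal one chr2:152105468-152105496, both on the plus strand, with the motif at -102 to -96 and -45 to -39. In the proximal stretch the AP-1 motif is followed by GC, so it differs from the ARE core as spelled here only by G in place of C. Other spellings of the core were not searched. A match of letters does not show binding.

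Levels of different genes were compared in TPM. In control gRNA-transduced cells the 10 genes spanned from 0 to 181 TPM. *Prdx1*, a peroxiredoxin that reduces hydrogen peroxide in the cytosol, was the most abundant, with 176, 193 and 175 TPM in control replicates 1, 2 and 3. Its mean of 181 ± 10.3 TPM (SD, n = 3) lay above 99.2% of all listed genes and was 5.72 times that of the next gene. *Txnrd1*, the cytosolic thioredoxin reductase, followed with 33.2, 26.6 and 35.3 TPM and a mean of 31.7 ± 4.55 (SD, n = 3). *Gclm*, the modifier subunit of the enzyme that makes the first step of glutathione synthesis, had 26.2, 24.3 and 26.2 TPM and a mean of 25.6 ± 1.11 (SD, n = 3), so that its highest replicate was just below the lowest of *Txnrd1*. In the 5 genes that follow, the replicates of each overlapped those of its neighbour in the order, while *Keap1* and *Hmox1* lay above *Gsr* and *Gclc* in all replicates. Their means were 22.2 ± 5.45 TPM for *Keap1*, 20.9 ± 5.96 TPM for *Hmox1*, 17.6 ± 4.29 TPM for *Nfe2l2*, 14.0 ± 0.77 TPM for *Gsr* and 12.9 ± 2.03 TPM for *Gclc* (SD, n = 3 each). *Gclc*, the catalytic partner of *Gclm*, was lower than *Gclm* in all 3 control replicates. A wide gap separated *Gclc* from the last pair, *Nqo1* and *Srxn1*.

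**Figure D1:**
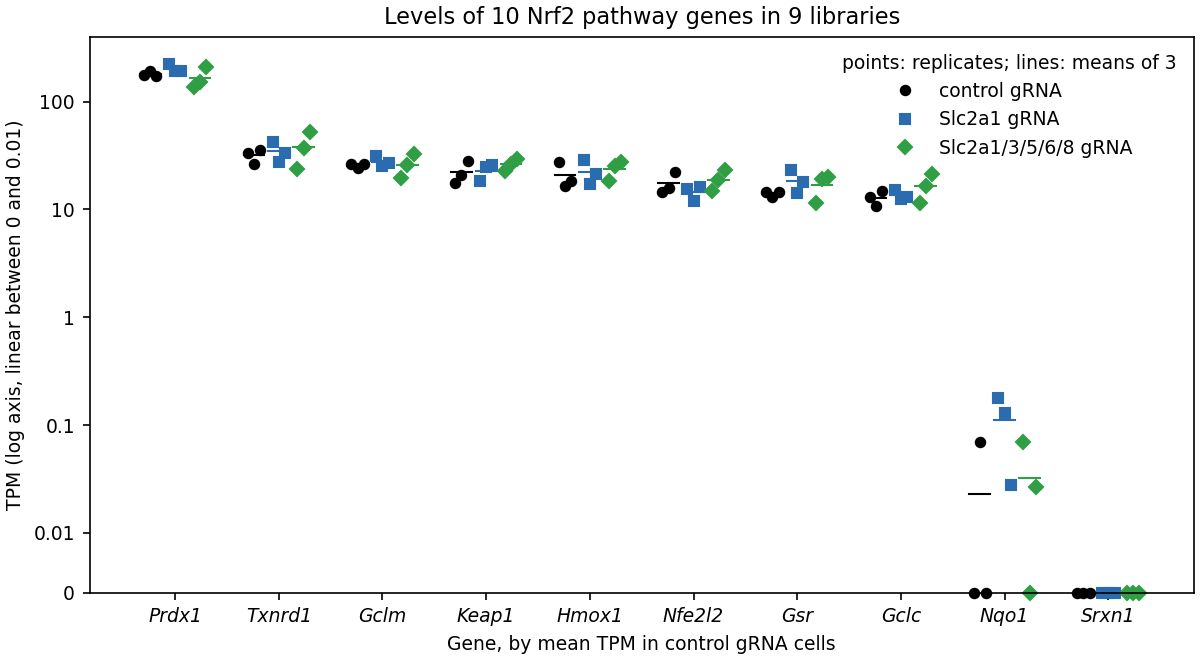
TPM of the 10 genes in 9 libraries, ordered by mean level in control cells, on a log axis that is linear between 0 and 0.01. Points are replicates and short lines are means of 3. *Prdx1* stands above the others, 7 genes lie between 10.8 and 51.9 TPM, and *Nqo1* and *Srxn1* lie under 0.2 TPM in all populations.

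*Nqo1*, the quinone reductase that is among the most used reporters of Nrf2 activity, was at the edge of detection in every population. Its estimated counts were 0, 3 and 0 in control replicates 1, 2 and 3, then 6, 5 and 1 in *Slc2a1* gRNA-transduced and 3, 0 and 1 in *Slc2a1/3/5/6/8* gRNA-transduced cells, 19 in all. The highest level was 0.179 TPM, and a count of 3, the upper limit that a count of 0 allows, corresponds to between 0.0694 and 0.0965 TPM. Only 2 libraries, both with the *Slc2a1* gRNA, were over 3 counts. With so few counts a difference was not detectable at this depth. Its single annotated transcript lies at chr8:107388225-107403206 on the minus strand of GRCm38. Both genes that flank it were expressed, *Nfat5* with 1104 to 2437 and *Nob1* with 1644 to 2241 estimated counts per library.

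*Srxn1*, sulfiredoxin, reduces overoxidised peroxiredoxins and so works on the product of the most abundant gene of the group. It had 0 counts in all 9 libraries, which allows up to between 0.0949 and 0.132 TPM by counting error. Of all 53077 listed genes, 26597 (50.1%) were at 0 in all 9 libraries, while none of 14 core proteasome genes was, their lowest count being 1230. The gene lies at chr2:152105516-152111376 on the plus strand. Its neighbours were also low, with 2 to 21 counts for *Scrt2* and 0 for *Tcf15*. Neither *Nqo1* nor *Srxn1* passed edgeR's filter on low counts in any population, and both are left out of the tests that follow.

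Differences between populations were tested on rounded estimated counts by the quasi-likelihood method of edgeR, with p-values adjusted by the Benjamini-Hochberg method over the 13834 genes tested. With the *Slc2a1* gRNA, 0 of the 8 testable genes changed relative to control, where 4.64% of all genes did; 2 of the 8 had an unadjusted p under 0.05, and DESeq2 called 1, where it called 10.7% of all genes with an adjusted p. Limma on log2(TPM + 1) called 0 of all 13834 genes there, so its 0 among the 8 says nothing about them. With the *Slc2a1/3/5/6/8* gRNAs, 1 of 8 (12.5%) changed, *Keap1*, against 15.9% of all genes, and 3 had an unadjusted p under 0.05. There DESeq2 called 2 of 8 (*Keap1* and *Gclc*), against 20.9% of all genes, and edgeR without *Slc2a1/3/5/6/8* gRNA replicate 1 called 4, against 16.6%. Between the *Slc2a1/3/5/6/8* gRNA and the *Slc2a1* gRNA, 0 of 8 differed in edgeR's test against 2.31% of all genes, with 3 at an unadjusted p under 0.05, 1 called by DESeq2 (6.8% of all genes) and none by limma on log2(TPM + 1) (0.224% of all genes). With the 5 gRNAs and no filter on low counts, edgeR called 1 of 8 against 10.4% of all genes. Whether the share called among the 8 genes with the 5 gRNAs lay below or above that of all genes therefore depended on the tool, the filter and 1 library. The numbers at an unadjusted p under 0.05, here and for the lists below, are given without the share of all genes at that cut, so they have no background.

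The point estimates were small and lay mostly on one side. The median log2 fold change of the 8 genes was 0.27 with the *Slc2a1* gRNA and 0.29 with the *Slc2a1/3/5/6/8* gRNAs, with 7 of 8 above 0 in each, while the median over all genes tested was -0.0014 and 0.0072. Single libraries moved these medians. The median with the *Slc2a1* gRNA was 0.17 without replicate 1 of that population, and that with the 5 gRNAs was 0.44 without their replicate 1 and 0.15 without their replicate 3. Limma on log2(TPM + 1) gave medians of 0.11 and 0.18, where the median of all genes was -0.11 and -0.052, and total count normalization gave 0.17 and 0.24, where it was -0.095 and -0.043. Both comparisons use the same 3 control libraries. The median absolute log2 fold change over all genes was 0.22 and 0.27. Over the 8 genes, the lowest lower and the highest upper limit of the 95% intervals were -0.35 and 0.75 with the *Slc2a1* gRNA and -0.38 and 0.68 with the 5 gRNAs, so that an increase of more than 1.68-fold lay outside the interval of each of the 8 genes in both comparisons. Scaled counts of the populations did not overlap for 1 of the 8 genes with the *Slc2a1* gRNA (26.2% of all genes), 2 with the *Slc2a1/3/5/6/8* gRNAs (34.2%) and 3 between these populations (20.9%).

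**Figure D2:**
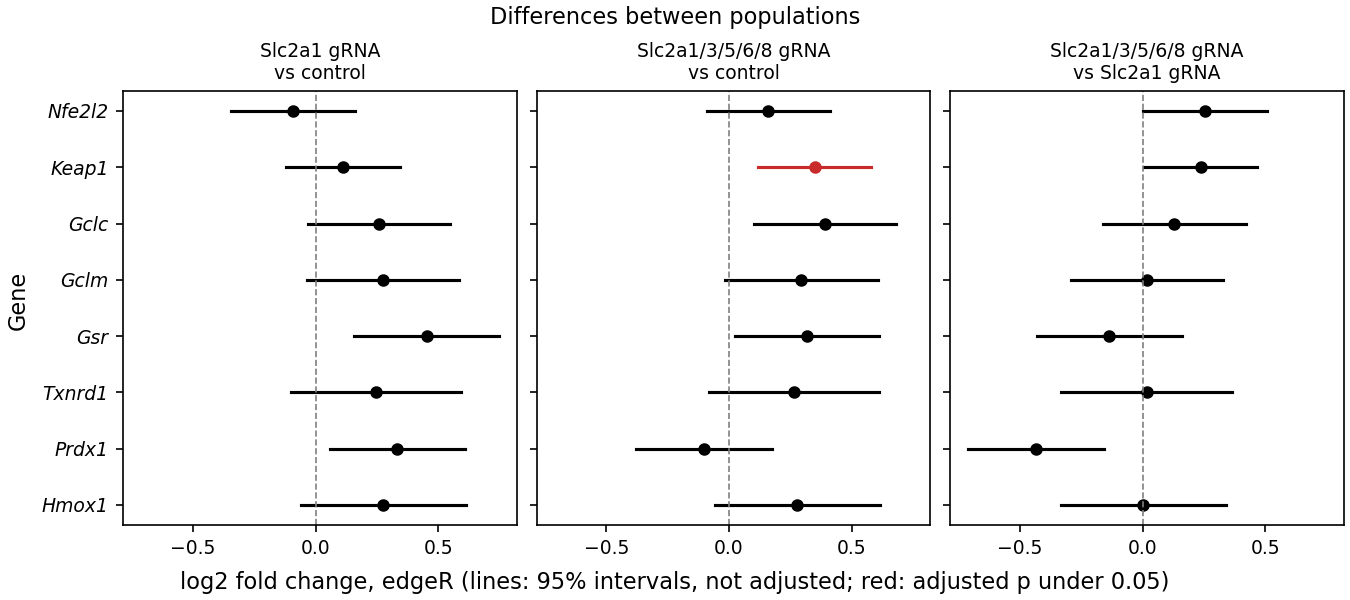
Log2 fold change of the 8 testable genes in 3 comparisons by edgeR, with 95% intervals that are not adjusted for the number of genes; the dashed line marks no difference. *Keap1* with the *Slc2a1/3/5/6/8* gRNAs, at 0.35, is the 1 value with an adjusted p under 0.05 and is drawn in red.

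Among the regulators, the transcript of *Nfe2l2* itself passed the test in no comparison. In CPM, counts scaled to the library size with TMM, it was at 35.8, 41.2 and 47.5 in control replicates 1, 2 and 3, at 41.8, 35.2 and 39.4 with the *Slc2a1* gRNA, and at 45.3, 42.6 and 51.2 with the *Slc2a1/3/5/6/8* gRNAs. The control replicates overlapped both targeted populations. The log2 fold change was -0.094 with the *Slc2a1* gRNA (95% interval -0.35 to 0.16, adjusted p = 0.689 by edgeR) and 0.16 with the *Slc2a1/3/5/6/8* gRNAs (-0.091 to 0.41, adjusted p = 0.373). With each library left out, the first ran from -0.21 to -0.019, and the second was 0.045 without control replicate 1. The 2 targeted populations did not overlap each other, at 0.25 between them (0.0013 to 0.51), but the adjusted p was 0.259. The gene lies at chr2:75675513-75704641 on the minus strand, and no exon of another gene overlaps its exons in GENCODE M21.

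*Keap1*, the repressor, was the single gene of the group that rose. Its CPM was 61.6, 63.8 and 70.2 in control replicates 1, 2 and 3, then 65.6, 76.0 and 69.6 with the *Slc2a1* gRNA and 83.5, 77.8 and 87.6 with the *Slc2a1/3/5/6/8* gRNAs. All 3 libraries with the 5 gRNAs were above the other 6. The increase over control was 27.3%, a log2 fold change of 0.35 ± 0.11 (SE, n = 3 per group; 95% interval 0.12 to 0.58, adjusted p = 0.0428 by edgeR). With the *Slc2a1* gRNA the value was 0.11 (-0.12 to 0.34, adjusted p = 0.583) and 0.021 without replicate 2 of that population, and between the targeted populations 0.24 (0.0067 to 0.47, adjusted p = 0.248). The call was near its threshold and was lost in 11 of 18 alternatives, while the direction held in all 18. Over these alternatives the estimate ran from 0.25 to 0.42 and the adjusted p from 0.0232 to 0.374. Leaving out any control replicate, *Slc2a1* gRNA replicate 2, or *Slc2a1/3/5/6/8* gRNA replicate 1 or 3 gave an adjusted p between 0.0519 and 0.21. In TPM the populations overlapped, with 17.7, 20.7 and 28.2 in control and 22.6, 26.4 and 29.4 with the 5 gRNAs. The gene lies at chr9:21229730-21239361 on the minus strand, and 10.9% of its exonic bases overlap *Gm16754* on the other strand, which had at most 67.3 estimated counts in a library. Reads of the overlap cannot be told apart, since no source states stranded counting.

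In glutathione synthesis, both subunits of glutamate-cysteine ligase had estimates above 0 against control, and neither passed the test. *Gclc* had 48.9, 42.1 and 45.4 CPM in control replicates 1, 2 and 3, 61.0, 53.9 and 48.3 with the *Slc2a1* gRNA, and 52.5, 55.9 and 70.2 with the *Slc2a1/3/5/6/8* gRNAs. The libraries with 5 gRNAs were all above control, and those with the *Slc2a1* gRNA overlapped it. The log2 fold change was 0.39 with the 5 gRNAs (95% interval 0.10 to 0.68, adjusted p = 0.065 by edgeR) and 0.26 with the *Slc2a1* gRNA (-0.030 to 0.55, adjusted p = 0.278). *Gclc* with the 5 gRNAs came under the threshold with DESeq2 (adjusted p = 0.0453), without a filter on low counts (0.0247 by edgeR) and without *Slc2a1/3/5/6/8* gRNA replicate 1 (0.0115 by edgeR), the library with the highest mitochondrial share. It stayed above the threshold in the other 15 of 18 alternatives, with adjusted p up to 0.469, and its estimate was 0.22 without *Slc2a1/3/5/6/8* gRNA replicate 3 (adjusted p = 0.335 by edgeR). With the *Slc2a1* gRNA *Gclc* was at 0.16 without replicate 1 of that population and at 0.40 without replicate 3. It lies at chr9:77754535-77794485 on the plus strand.

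*Gclm* had 41.3, 35.7 and 29.4 CPM in control replicates 1, 2 and 3, against 46.1, 44.9 and 37.5 with the *Slc2a1* gRNA and 40.8, 38.9 and 49.6 with the *Slc2a1/3/5/6/8* gRNAs. Control replicate 1 overlapped both targeted populations. Its log2 fold changes were 0.28 (95% interval -0.034 to 0.59, adjusted p = 0.282 by edgeR) and 0.29 (-0.016 to 0.60, adjusted p = 0.18). Without control replicate 3 they were 0.15 and 0.16, and without *Slc2a1/3/5/6/8* gRNA replicate 3 the second was 0.077. *Gclm* lies at chr3:122245557-122270732 on the plus strand, with 3.88% of its exonic bases shared with a gene on the same strand and 4.71% with one on the other. These genes, *Gm17494* and *Gm6061*, had 122 to 443 and at most 7.69 estimated counts per library, against 877 to 1400 for *Gclm*.

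*Gsr*, the NADPH-dependent enzyme that returns oxidised glutathione to its reduced form, came nearest to a call with the *Slc2a1* gRNA. It had 40.8, 37.0 and 35.5 CPM in control replicates 1, 2 and 3, and 61.8, 46.5 and 47.1 in the *Slc2a1* gRNA replicates. With the *Slc2a1/3/5/6/8* gRNAs it had 40.5, 50.0 and 49.9. Every *Slc2a1* gRNA library was above every control, with replicate 1 far above the other 2, and 1 library with the 5 gRNAs fell within the control range. The log2 fold change with the *Slc2a1* gRNA was 0.45 ± 0.14 (SE, n = 3 per group; 1.37-fold, 95% interval 0.16 to 0.75, adjusted p = 0.0756 by edgeR). It passed in 4 of 18 alternatives, among them DESeq2 (adjusted p = 0.0343) and edgeR without *Slc2a1/3/5/6/8* gRNA replicate 1 (0.0157). It did not pass in the other 14, with adjusted p up to 0.501, and the estimate fell to 0.29 without *Slc2a1* gRNA replicate 1 (adjusted p = 0.339 by edgeR). With the 5 gRNAs it was 0.32 (0.023 to 0.61, adjusted p = 0.132 by edgeR) and 0.50 without replicate 1 of that population, and the difference between the targeted populations was -0.14 (-0.43 to 0.16, adjusted p = 0.636). *Gsr* lies at chr8:33652523-33698163 on the plus strand.

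**Figure D3:**
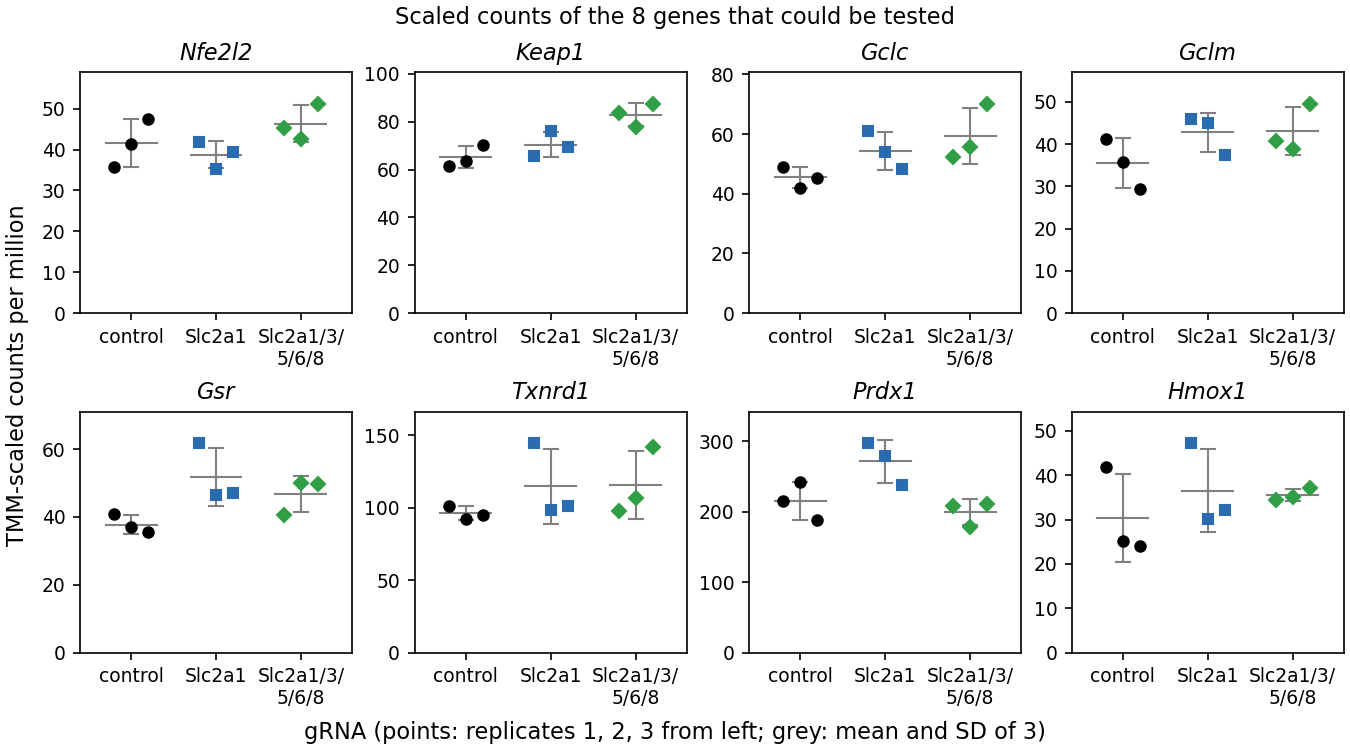
CPM (counts scaled to library size with TMM) of the 8 testable genes in the 3 populations, with replicates 1, 2 and 3 from left to right in each and the mean and SD of 3 in grey. The axes start at 0, so the small size of the differences can be read directly; *Keap1* is highest with the 5 gRNAs, at 77.8 to 87.6, and *Prdx1* highest with the *Slc2a1* gRNA in mean.

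In the thioredoxin branch, *Txnrd1* passed the test in no comparison. It had 102, 92.2 and 95.2 CPM in control replicates 1, 2 and 3, then 144, 98.6 and 101 with the *Slc2a1* gRNA and 97.8, 107 and 142 with the *Slc2a1/3/5/6/8* gRNAs. One library of each targeted population stood above the rest, replicate 1 with the *Slc2a1* gRNA and replicate 3 with the 5 gRNAs, and the others lay at or near the control range. The log2 fold change was 0.25 with the *Slc2a1* gRNA (95% interval -0.10 to 0.59, adjusted p = 0.398 by edgeR) and 0.26 with the 5 gRNAs (-0.083 to 0.61, adjusted p = 0.284). These values rested on the high libraries and were 0.016 without *Slc2a1* gRNA replicate 1 and 0.057 without *Slc2a1/3/5/6/8* gRNA replicate 3. Leaving out a lower library moved them up, to 0.39 without *Slc2a1* gRNA replicate 3 and 0.46 without *Slc2a1/3/5/6/8* gRNA replicate 1. *Slc2a1* gRNA replicate 1 was also the highest of its population for *Hmox1*, *Gsr*, *Gclc*, *Gclm*, *Prdx1* and *Nfe2l2*, and the lowest for *Keap1*. *Txnrd1* lies at chr10:82833951-82897712 on the plus strand.

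*Prdx1* was the 1 gene of the 8 with an estimate below 0 with the 5 gRNAs. It had 216, 242 and 188 CPM in control replicates 1, 2 and 3, 297, 279 and 237 with the *Slc2a1* gRNA, and 208, 179 and 211 with the *Slc2a1/3/5/6/8* gRNAs. Libraries with the *Slc2a1* gRNA lay above those with 5 gRNAs, while control overlapped both. The difference between the targeted populations was -0.43 ± 0.13 on the log2 scale (SE, n = 3 per group; 95% interval -0.71 to -0.16), with an adjusted p of 0.0936 by edgeR, 0.0184 by DESeq2 and 0.026 by edgeR without a filter on low counts. It did not pass in the other 16 of 18 alternatives, with adjusted p up to 0.487. Against control the value was 0.33 with the *Slc2a1* gRNA (0.057 to 0.61, adjusted p = 0.149 by edgeR, and 0.0177 with only these groups in the fit) and -0.10 with the 5 gRNAs (-0.38 to 0.18, adjusted p = 0.626), which ran from -0.23 to 0.037 with each library left out. The gene lies at chr4:116685544-116700822 on the plus strand, and its listed pseudogene *Prdx1-ps* was at 0 in all libraries.

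*Hmox1*, the heme oxygenase that opens the heme ring and is a sensitive Nrf2 target, was expressed but varied within control. Its CPM was 41.9, 25.2 and 24.1 in control replicates 1, 2 and 3, 47.2, 30.1 and 32.1 with the *Slc2a1* gRNA, and 34.4, 35.0 and 37.0 with the *Slc2a1/3/5/6/8* gRNAs. Replicate 1 was high in both control and *Slc2a1* gRNA-transduced cells. The log2 fold change was 0.28 in both comparisons with control (95% intervals -0.060 to 0.61 and -0.058 to 0.62, adjusted p = 0.323 and 0.243 by edgeR) and 0.0029 between the targeted populations (-0.33 to 0.34). Without control replicate 1 it was 0.45 with the *Slc2a1* gRNA and 0.44 with the 5 gRNAs, and without control replicate 3 it was 0.16 in both. The value with the 5 gRNAs was 0.52, 0.18 and 0.14 without their replicates 1, 2 and 3. Without *Slc2a1/3/5/6/8* gRNA replicate 1, *Hmox1*, *Gclc*, *Txnrd1* and *Gsr* passed the test with the 5 gRNAs, with adjusted p between 0.0106 and 0.0314 by edgeR (16.6% of all genes passed in that fit), and *Keap1* did not (0.0993). *Hmox1* lies at chr8:75093621-75100589 on the plus strand.

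The tables also give a length for each gene in each library, which changes with the transcripts that the reads were assigned to and was not used to choose the genes. *Gclm* was 1621, 1471 and 1391 bases long in control replicates 1, 2 and 3, 1442, 1583 and 1474 with the *Slc2a1* gRNA, and 1693, 1671 and 1733 with the *Slc2a1/3/5/6/8* gRNAs. All 3 libraries with the 5 gRNAs were above the other 6, by 204 bases in mean over control. An exact two-sided permutation test gave p = 0.1, the smallest that 3 against 3 libraries allow, so the design cannot pass 0.05, and 24 such tests were made over 8 genes and 3 comparisons. Lengths of 1 of the 8 genes did not overlap in each comparison with control, *Nfe2l2* with the *Slc2a1* gRNA and *Gclm* with the 5 gRNAs, where 12.5% and 16.1% of all tested genes with a varying length did not. Between the targeted populations this was *Gclm* alone, against 10.7%. The length matters to the level of *Gclm*, whose log2 difference between the targeted populations was 0.019 from counts and -0.22 once lengths entered as an offset. With the 5 gRNAs against control it was 0.29 from counts and 0.051 with the offset (adjusted p = 0.849 by edgeR). *Keap1* varied most, from 2503 to 3222 bases, with populations that overlapped. Its call with the 5 gRNAs was lost with the length offset (adjusted p = 0.206 by edgeR), while its estimate was 0.31 there and 0.35 from counts.

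**Figure D4:**
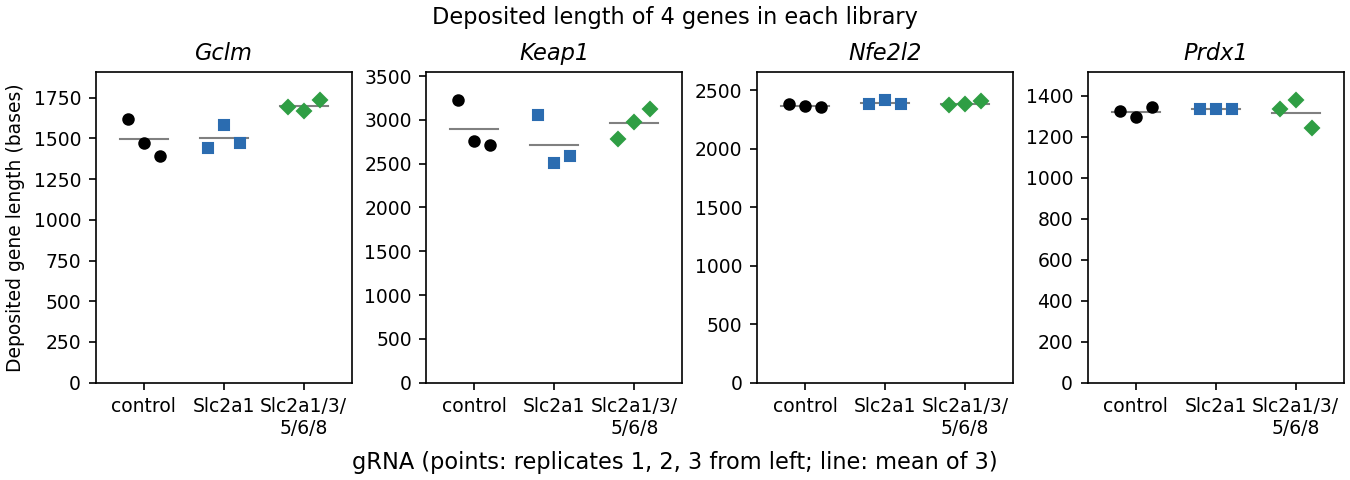
Deposited length in bases of *Gclm*, *Keap1*, *Nfe2l2* and *Prdx1* in the 9 libraries, with replicates 1, 2 and 3 from left to right in each population and the mean of 3 as a line. *Gclm* is longest with the *Slc2a1/3/5/6/8* gRNAs, at 1671 to 1733 bases, and the other 3 genes overlap between control and this population.

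The neighbouring parts of the antioxidant system were read from 7 lists with 101 genes, of which 87 were tested. With the *Slc2a1* gRNA, 2 rose and 3 fell (5.75%, against 4.64% of all genes), and the median log2 fold change was -0.021. The thioredoxin list gave *Txnip*, the inhibitor of thioredoxin, which went from 216, 175 and 160 TPM in control replicates 1, 2 and 3 to 23.8, 29.1 and 66.4 and fell by 2.11 on the log2 scale (SE 0.33, adjusted p = 0.00879 by edgeR). *Txnrd3*, a reductase for thioredoxin and glutathione, rose by 0.65 (adjusted p = 0.0178 by edgeR). In the heme and iron list, *Tfrc*, the transferrin receptor, rose by 1.33 (adjusted p = 0.0248 by edgeR), with 85.7 TPM in *Slc2a1* gRNA replicate 1 and 33.1 and 33.9 TPM in the others, and the value was 0.73 without replicate 1 (adjusted p = 0.0416 by edgeR). *Blvrb*, a biliverdin and flavin reductase, fell by 0.70 (adjusted p = 0.0372 by edgeR). *Abcc5*, an efflux pump of the detoxification list, fell by 0.76 (adjusted p = 0.0146 by edgeR). EdgeR called 0 of the 13 regulators, 21 glutathione genes, 12 NADPH genes and 5 superoxide and catalase genes tested. Of these, 1, 3, 5 and 0 had an unadjusted p under 0.05, and DESeq2 called 0, 1, 2 and 0, against 10.7% of all genes, while limma on log2(TPM + 1) called no gene at all in this comparison. The 5 calls named here held in 9 to 15 of 18 alternatives. The number of calls over all lists was 1 with the length offset (1.21% of all genes), 19 with only these groups in the fit (16.7%) and 0 with limma on log2(TPM + 1) (0 genes in all). The share of all genes moved with it also when samples were left out, from 0.0773% to 8.88%. It was 0 without control replicate 2 or *Slc2a1* gRNA replicate 2, 1 without control replicate 1 or 3, 2 without *Slc2a1* gRNA replicate 1, 9 without *Slc2a1* gRNA replicate 3 and 10 without *Slc2a1/3/5/6/8* gRNA replicate 1.

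With the *Slc2a1/3/5/6/8* gRNAs, 8 of the 87 list genes rose and 7 fell (17.2%, against 15.9% of all genes), with a median log2 fold change of -0.0074. In the glutathione list 3 of 21 rose and 3 fell. *Glrx*, the cytosolic glutaredoxin, went from 54.8, 64.9 and 68.0 TPM in control replicates 1, 2 and 3 to 29.9, 36.6 and 29.1, and fell by 0.91 on the log2 scale (adjusted p = 0.00195 by edgeR), a call that held in all 18 alternatives, the 1 list gene of this comparison for which it did. *Glrx2*, the mitochondrial glutaredoxin, rose by 0.63 (adjusted p = 0.00978 by edgeR). The glutathione transferases *Gstp1* and *Gstt2* fell by 0.43 and 0.58 (adjusted p = 0.0182 and 0.0335 by edgeR). In the thioredoxin list *Txnrd3* rose by 1.00 (adjusted p = 0.000593 by edgeR) and the stress protein *Sesn2* by 0.77 (adjusted p = 0.00339 by edgeR).

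Of the 13 regulators tested with the 5 gRNAs, 2 (15.4%) rose, and calls in either direction made up 15.9% of all genes. *Nfe2l1*, a relative of Nrf2 that controls proteasome genes, increased by 0.43 in log2 (adjusted p = 0.0254 by edgeR), and *Pgam5*, a mitochondrial phosphatase that binds Keap1, by 0.42 (adjusted p = 0.0309 by edgeR). In the detoxification list 1 of 10 rose and 3 fell. The reductase *Akr1c13* rose by 0.99 (adjusted p = 0.036 by edgeR, and 0.59 with an adjusted p of 0.132 without *Slc2a1/3/5/6/8* gRNA replicate 1), the aldehyde reductase *Akr1a1* fell by 0.37 (adjusted p = 0.0462 by edgeR), and the efflux pumps *Abcc1* and *Abcc5* fell by 0.54 and 0.79 (adjusted p = 0.0208 and 0.00337 by edgeR). *Blvrb* was the 1 call of the 10 heme and iron genes and fell by 0.66 (adjusted p = 0.0202 by edgeR). EdgeR called 0 of the 12 NADPH genes, which include the enzymes of the oxidative pentose phosphate pathway, and 0 of the 5 superoxide and catalase genes. Of these, 2 and 1 had an unadjusted p under 0.05, DESeq2 called 0 and 1 (20.9% of all genes), and limma on log2(TPM + 1) called none (3.13% of all genes). The call of *Nfe2l1* held in 9 of 18 alternatives and that of *Akr1a1* in 6, and those of the other genes named for this comparison in at least 10. Over all lists the calls numbered 6 with the length offset (9.56% of all genes), 9 without the replicate block (13.6%) and 2 with limma at either pseudocount (3.13% and 3.34%). With samples left out they numbered 4, 8 and 5 without control replicates 1, 2 and 3, 9 without *Slc2a1/3/5/6/8* gRNA replicate 2 and 6 without its replicate 3, where the shares of all genes were 4.45%, 6.99%, 5.16%, 12.9% and 6.13%. Against 15 in the main fit, the highest number was 18, both with a sample left out and in the other settings. The share of all genes reached 17.7% and 20.9% over these fits.

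Between the targeted populations, 3 of the 87 list genes were higher and 1 lower with the *Slc2a1/3/5/6/8* gRNAs (4.6%, against 2.31% of all genes). *Nfe2l1* was higher by 0.57 on the log2 scale (adjusted p = 0.027 by edgeR). *Slc3a2*, the heavy chain of the cystine importer and other amino acid exchangers, was higher by 0.63 (adjusted p = 0.0147 by edgeR). *Chac1*, which degrades glutathione, was higher by 0.57 (adjusted p = 0.0472 by edgeR), and the thioredoxin gene *Txn1* was lower, with a log2 fold change of -0.49 (adjusted p = 0.0348 by edgeR). These calls held in 7, 12, 6 and 5 of 18 alternatives for *Nfe2l1*, *Slc3a2*, *Chac1* and *Txn1*. The number over all lists was 13 without a low-count filter (3.68% of all genes), 9 with DESeq2 (6.8%), 7 with at least 10 counts in every sample (2.89%), and 0 with the length offset, only these groups in the fit, or limma. It was 0 without *Slc2a1* gRNA replicate 2, 2 without its replicate 3, 1 without any 1 control replicate or *Slc2a1/3/5/6/8* gRNA replicate 2, and 7 without *Slc2a1/3/5/6/8* gRNA replicate 1, with shares of all genes from 0.291% to 2.64%.

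**Figure D5:**
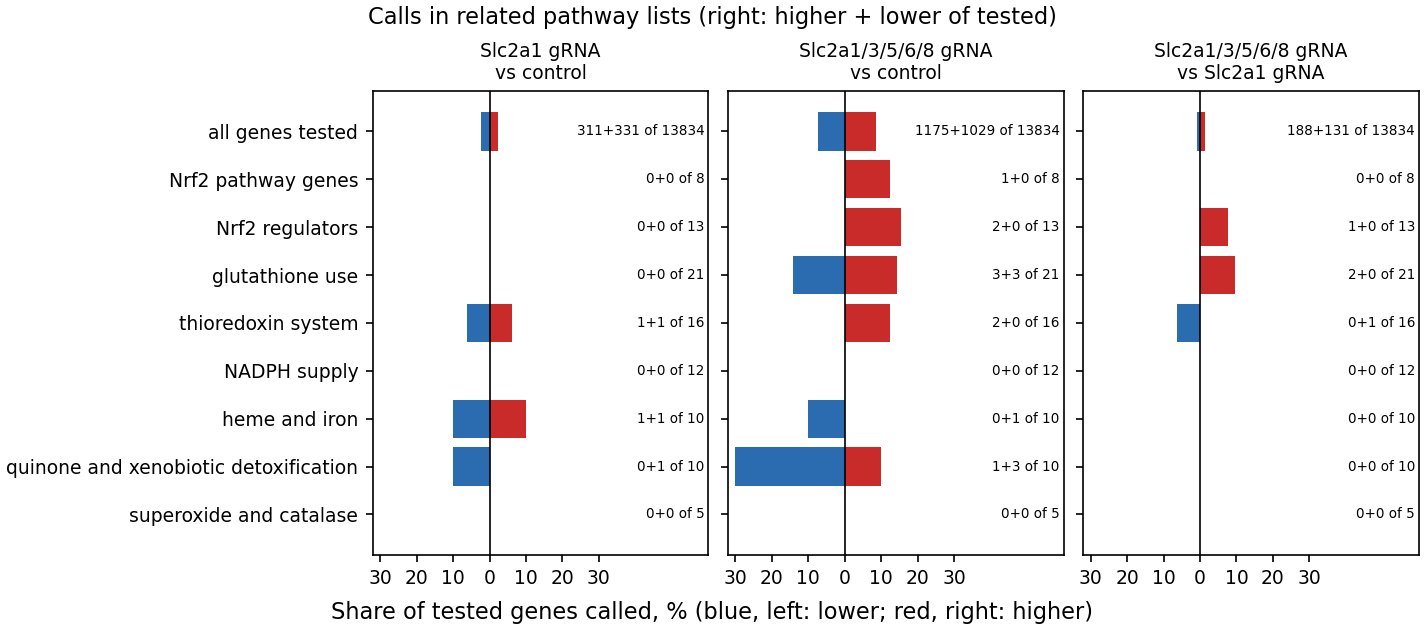
Share of tested genes called lower (blue, to the left) and higher (red, to the right) by edgeR in 3 comparisons, for all genes, the 8 testable Nrf2 pathway genes and 7 lists, with the numbers higher and lower of those tested at the right. With the 5 gRNAs 17.2% of the list genes were called in both directions together, close to the 15.9% of all genes.

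Across the 9 libraries, the genes closest to *Nfe2l2* in pattern were *Cgas*, *Mosmo* and *Rnf4*, with a root mean squared difference of 0.0692, 0.073 and 0.0769 between log2 CPM values centred on each gene's mean. They were taken from 10355 tested genes that vary at least as much as *Nfe2l2*, whose values spanned 0.54. Among the Nrf2 pathway genes, *Keap1* was nearest at 0.155 and *Hmox1* farthest at 0.36, and 2.79% and 48.6% of the 10355 genes were nearer than these. *Keap1*, from 5.95 to 6.45 in log2 CPM, varied less than *Nfe2l2* and would not itself be among the 10355 genes. Its share is thus not a like comparison, since a flatter gene can lie nearer for that reason. The likeness is a description over libraries that share their populations.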

How the data were processed

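RNA from 5TGM1-Cas9 cells of 3 populations, with 3 samples each, was analysed, grouped by the labels' population and replicate number. RNA was primed with oligo-dT per the paper and amplified by a SMART-seq kit per the labels. The authors mapped paired reads with Salmon 1.5.1 on Galaxy and deposited a table per sample with estimated counts, TPM, length and effective length for 53077 genes. Annotation and strand setting are not given in the sources used here.

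Estimated counts were rounded (47.7% of those above 0 were not whole). The quasi-likelihood test of edgeR 4.0.16 (R 4.3.3) was run on them with TMM, the default filter of edgeR, the replicate number as a block as in the study's paired test, and all 9 samples in one fit. Standard errors were derived from the F statistic, and a Benjamini-Hochberg adjusted p under 0.05 over 13834 genes was a call. The study calls the samples biological replicates, and within each group they differed beyond sampling noise. Intervals of fold changes come from that fit and include the spread between replicates, while the floors of 3 counts cover counting error only.

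The deposited TPM was used for levels between genes and, as log2(TPM + 1) and log2(TPM + 0.1), in limma 3.58.1. DESeq2 1.42.0, other filters and scalings, a length offset, no block and leaving out each sample were tried. Coordinates are from GENCODE M21 on GRCm38, and start windows from RefSeq on GRCm38.p6, matched by symbol. On simulated data for the *Slc2a1/3/5/6/8* gRNA comparison with control, 187 of 200 genes changed by 1 on the log2 scale were recovered, with 11 other calls, over 13553 genes. Smaller changes, such as those estimated for the 8 testable genes, and a replicate effect were not simulated. Python 3.11.15 was used for levels and figures.

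The genes and lists were chosen with earlier results of these data known. Named are all 10 genes, from each list up to 4 called genes with the smallest adjusted p per comparison, the 3 genes most like *Nfe2l2*, the targeted genes, flanking and overlapping genes, and markers that left their list's pattern, the last 2 kinds named after their values were seen.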

Additional observations from a re-analysis of the deposited data

How the results depend on the processing

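The number of testable Nrf2 pathway genes called with the *Slc2a1* gRNA, 0 by edgeR, was 1 with DESeq2, 1 with no low-count filter and 2 with only the 2 groups compared, where 10.7%, 5.47% and 16.7% of all genes were called, and ran from 0 to 1 with each sample left out. With the *Slc2a1/3/5/6/8* gRNAs, 1 call became 2 with DESeq2 (20.9% of all genes) and 0 with total count normalization (14.2%), the gene length offset (9.56%) and limma on log2(TPM + 1) (3.13%) or log2(TPM + 0.1) (3.34%), and ran from 0 to 4 with each sample left out. Without the filter it stayed 1 (10.4% of all genes), but was *Gclc* in place of *Keap1* (adjusted p = 0.0521 by edgeR). Between the targeted populations, 0 became 1 with DESeq2 (6.8%) and without the filter (3.68%), and stayed 0 with each sample left out. Without the replicate block the numbers were 0, 1 and 0, where 3.86%, 13.6% and 0.932% of all genes were called. *Keap1* with the 5 gRNAs had an adjusted p of 0.0423 by edgeR there. With each sample left out, the shares of all genes ran from 0.0773% to 8.88%, 4.45% to 17.7% and 0.291% to 2.64% in the 3 comparisons. Same-numbered samples had correlations over genes from -0.107 to 0.215, over 0.1 in 5 of 9 pairs. These include all 3 pairs of control and *Slc2a1* gRNA samples (0.149, 0.111 and 0.215). Pairs of control and *Slc2a1/3/5/6/8* gRNA samples were mixed (0.162, -0.065 and 0.127). Those of the targeted populations were all below 0 (-0.107, -0.0341 and -0.0421), and the block was kept there too. Correlations this small, with 3 libraries per group, cannot decide whether the numbers pair the groups.

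Directions held in all 144 values with the *Slc2a1* gRNA, 140 of 144 with the 5 gRNAs and 121 of 144 between the targeted populations. With the 5 gRNAs *Gclm* turned to -0.0019 and -0.0029 with limma at pseudocounts of 1 and 0.1, and *Prdx1* ran from -0.23 to 0.037 with each sample left out. Between the targeted populations *Hmox1* was -0.040 without the block, -0.011 with the length offset, -0.0081 with at least 10 counts in every sample and -0.025 with only the 2 groups. There *Gclm* was -0.22 with the length offset, -0.0054 with only the 2 groups, and -0.12 with limma at both pseudocounts, and *Txnrd1* was -0.030 with the length offset. With each sample left out, *Hmox1* ran from -0.13 to 0.24, *Gclm* from -0.20 to 0.14, *Txnrd1* from -0.18 to 0.24, *Gclc* from -0.030 to 0.28 and *Gsr* from -0.23 to 0.052. The cause was not tested. With the *Slc2a1* gRNA, limma on log2(TPM + 1) and log2(TPM + 0.1) moved the median of all genes to -0.11 and -0.16 on the log2 scale. Standard errors of the 8 genes lay between 0.11 and 0.16, and for *Srxn1* absence and a level under the floor of 3 counts cannot be told apart.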
